A study of Homo sapiens with 7 samples.

Results

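The genes of 10 subunits of the anaphase-promoting complex, ANAPC1, ANAPC2, ANAPC4, ANAPC5, ANAPC7, ANAPC10, ANAPC11, ANAPC13, ANAPC15 and ANAPC16, were examined for binding of the transcription factor Myc in HT29 cells, an established human colon adenocarcinoma line. Each peak was assigned to a subunit gene when its summit, the base of highest signal, lay inside the RefSeq span of the gene or within 20 kb of it. This gave 37 of the 47017 peaks in the authors' list, at 10 of 20037 protein-coding genes. The group was chosen by the fold of the ANAPC15 site in this same list, to place that site among the other subunits, so the folds below are descriptions and carry no test. The 4 other core subunits of the complex, CDC16, CDC23, CDC26 and CDC27, are given further below.

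The anaphase-promoting complex, or cyclosome, is a ubiquitin ligase that marks securin and the mitotic cyclins for destruction, and so sets off the separation of sister chromatids and the exit from mitosis. Its subunits form a platform, an arm of repeat proteins that binds the coactivators CDC20 and FZR1, and a catalytic module of a cullin and a RING protein. Myc binds DNA with its partner MAX, best known at the E-box CACGTG, and is found mostly at active promoters.

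The data came from CUT&RUN, in which an antibody guides a nuclease to the protein of interest and the DNA released around it is sequenced. The sample titles give 3 Myc libraries, 3 IgG libraries and 1 input; the IgG samples also carry the Myc antibody in their labels, and the titles were followed here. The treatment for all of them was oleic acid, a fatty acid, for 6 h in medium without serum. As cells without oleic acid were not analysed here, a response to it cannot be read from these values. The authors' list holds 1 value per peak for the Myc libraries together, and neither a spread between libraries nor a check of the cell type on RNA markers can be had from it.

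Peak strength is given as the authors' fold enrichment, the Myc signal over the control level at the summit. The number of Myc fragments over the summit (the pileup) was recovered from the fold and the listed p-value, and intervals are exact Poisson 95% intervals of that pileup with the control level held fixed. They cover counting error only, since amplified fragments are not independent molecules and the list does not separate the replicates. Over all peaks on the nuclear chromosomes the median fold was 4.11, the median pileup 29 and the median control level 5.92, and no listed peak had a pileup under 14.

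The sequences around the starts are shown first, since the strongest sites described below lie close to them. RefSeq (GRCh38.p14, the same chromosome sequences as hg38) gave 21 windows for the 10 genes, each from 250 bases before a transcription start to 50 bases after it, printed 5′ to 3′ on the strand of the gene. For ANAPC15, the windows on either side of the Myc summit at chr11:72112621 are chr11:72112646-72112945 and chr11:72112249-72112548, both on the minus strand, and capitals mark matches to GCATGCG on either strand, of which the first window holds an overlapping pair and the second none. The 97 bases between these windows, which hold the summit itself, were not analysed here.
ANAPC15, start 72112695: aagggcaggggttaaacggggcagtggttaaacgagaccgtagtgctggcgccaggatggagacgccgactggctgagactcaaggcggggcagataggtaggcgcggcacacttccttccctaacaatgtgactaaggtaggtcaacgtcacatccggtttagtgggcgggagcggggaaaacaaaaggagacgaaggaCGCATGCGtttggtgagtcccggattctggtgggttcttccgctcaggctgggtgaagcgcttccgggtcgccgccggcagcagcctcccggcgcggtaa
ANAPC15, start 72112298: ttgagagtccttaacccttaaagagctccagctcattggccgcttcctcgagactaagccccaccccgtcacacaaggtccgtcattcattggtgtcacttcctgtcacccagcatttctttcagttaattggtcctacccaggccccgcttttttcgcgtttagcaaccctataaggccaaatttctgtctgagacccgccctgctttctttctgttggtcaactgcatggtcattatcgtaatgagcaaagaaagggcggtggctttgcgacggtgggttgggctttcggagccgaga

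ANAPC13, on chr3:134485974-134486273 (minus strand), was the only subunit gene with the canonical E-box in a window. ANAPC5, on chr12:121352362-121352661 (minus strand), carried 2 E-box variants. ANAPC1, on chr2:111884144-111884443 (minus strand), had the second highest fold of the 10 genes and none of the E-box forms searched. Capitals mark CACGTG and its variants CACGCG and CATGTG on either strand.
ANAPC13, start 134486023: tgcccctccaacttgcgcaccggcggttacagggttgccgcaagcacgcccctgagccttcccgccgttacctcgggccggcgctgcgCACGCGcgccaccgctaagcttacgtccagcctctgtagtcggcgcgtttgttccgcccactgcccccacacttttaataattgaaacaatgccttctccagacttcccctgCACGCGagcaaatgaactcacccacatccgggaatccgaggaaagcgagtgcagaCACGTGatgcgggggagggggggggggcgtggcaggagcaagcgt
ANAPC5, start 121352411: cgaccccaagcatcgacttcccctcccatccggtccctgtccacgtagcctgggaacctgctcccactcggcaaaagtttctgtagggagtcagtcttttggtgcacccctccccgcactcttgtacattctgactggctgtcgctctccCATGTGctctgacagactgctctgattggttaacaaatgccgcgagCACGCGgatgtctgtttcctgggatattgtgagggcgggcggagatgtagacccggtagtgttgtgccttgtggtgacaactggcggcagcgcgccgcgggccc
ANAPC1, start 111884193: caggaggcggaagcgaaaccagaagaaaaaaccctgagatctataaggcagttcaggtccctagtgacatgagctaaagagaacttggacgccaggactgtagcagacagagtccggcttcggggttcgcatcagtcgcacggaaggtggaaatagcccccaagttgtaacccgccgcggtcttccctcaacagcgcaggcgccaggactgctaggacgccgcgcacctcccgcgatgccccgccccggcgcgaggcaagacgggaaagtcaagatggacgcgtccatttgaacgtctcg

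All 10 genes had a Myc summit within 1 kb of a transcription start listed by RefSeq, where 60.1% of the 15842 protein-coding genes with a listed start did. Counted from the annotated ends of the gene instead, 9 of 10 had one, against 56.4% of 20037 genes. The exception, ANAPC5, has an annotated 5′ end 1929 bp upstream of the summit, while the start in the promoter table lies 131 bp from it. Taking in either an annotated end or a listed start, all 10 had a summit within 1 kb, against 59.8% of protein-coding genes. The median fold was 15.4 over the 10 subunit genes and 7.92 over the 11986 genes with such a summit. Of the 10, 7 lay above 11.1, the upper quartile of those genes. By the definition of that quartile, 2997 of the 11986 genes with such a summit lay above it, which is 15.0% of all 20037 protein-coding genes. Since the group was drawn up with the ANAPC15 site in view, these shares describe it and test nothing.

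**Figure D1:**
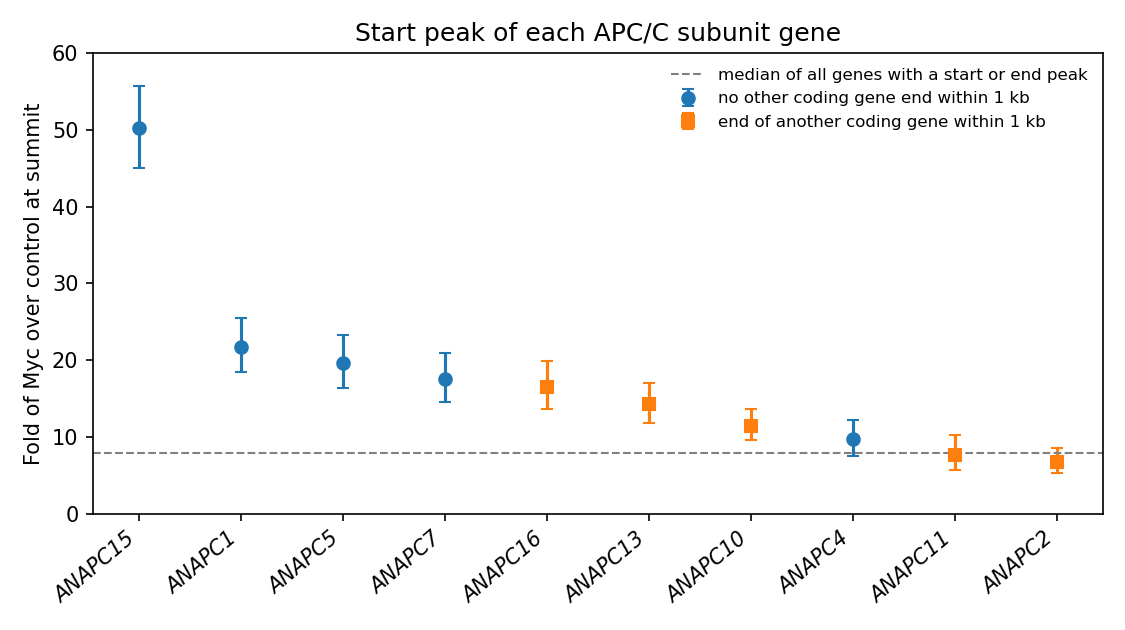
Fold of Myc over control at the strongest summit within 1 kb of a start or end of each anaphase-promoting complex (APC/C) subunit gene, with exact Poisson 95% intervals of the pileup. Circles are genes with no other protein-coding gene end within 1 kb of the summit and squares those with one; the dashed line is the median of 7.92 over all genes with such a peak. ANAPC15 stands at 50.2, and the other 9 genes lie between 6.80 and 21.8.

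ANAPC15 encodes a small subunit that the complex needs to release the mitotic checkpoint complex, its inhibitor while chromosomes are still unattached. Its gene lies on chr11:72106372-72112780 on the minus strand (GRCh38). The summit at 72112621 lay inside the gene, 74 bp downstream of the nearest of 4 listed starts, in a peak 1617 bp wide. The fold reached 50.2 (95% interval 45.0 to 55.8), with 345 Myc fragments at the summit and a control level of 5.89. No other peak on the nuclear chromosomes had a higher fold. The control level was close to the median of the list, and the pileup was the highest of the 10 genes, ahead of 153 at ANAPC1. By pileup alone, 36 nuclear peaks were higher, and by −log10 q, which was 461 here, 6 were.

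The sites closest to it in fold were a peak shared by MRPS18B, a mitochondrial ribosome gene, and PPP1R10, a phosphatase regulator, at 44.6 (39.5 to 50.3), and one at PPAT and PAICS, genes of purine synthesis, at 41.2 (36.3 to 46.6). Their distances from ANAPC15 on the log2 scale were -0.17 and -0.29. The interval of the shared peak overlapped that of ANAPC15, and so did that of the purine site. Among the subunit genes, the interval of ANAPC15 stood apart from those of all 9 others. Its fold was 2.30 times that of ANAPC1, the next in order, and 7.38 times that of ANAPC2, the last.

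**Figure D2:**
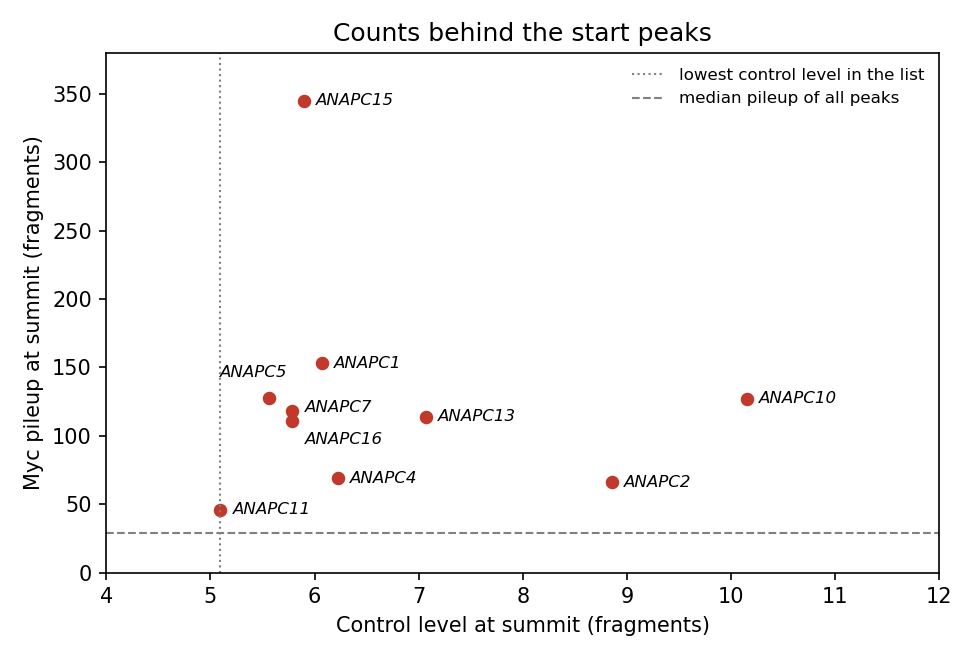
Myc pileup against control level, both in fragments at the summit, for the start peak of each subunit gene. The dotted line marks the lowest control level in the list, 5.09, and the dashed line the median pileup of all peaks, 29; ANAPC15 lies above the other genes on the pileup axis at a control level shared by several of them.

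The platform genes ANAPC1, ANAPC5 and ANAPC4 differed among themselves. ANAPC1 (chr2:111766231-111884193, minus strand), whose product is the largest subunit and joins the platform to the arm, had a summit 152 bp upstream of its start with a fold of 21.8 (18.5 to 25.5). ANAPC5 (chr12:121308245-121354209, minus strand), a platform subunit, had 19.6 (16.4 to 23.3). ANAPC4 (chr4:25377263-25418498, plus strand), also of the platform, had 9.69 (7.57 to 12.2) at a summit 350 bp upstream of the start, the farthest of the 10. The intervals of ANAPC1 and ANAPC5 overlapped, and that of ANAPC4 lay below both. Pileups were 153 at ANAPC1, 128 at ANAPC5 and 69 at ANAPC4, over control levels of 6.07, 5.57 and 6.22.

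The start peaks of the catalytic pair had the lowest folds of the 10 genes, and both sites were shared with another coding gene, as given further below. ANAPC2 (chr9:137174784-137188560, minus strand) encodes the cullin of the complex, and its start peak had a fold of 6.80 (5.28 to 8.62), with 66 Myc fragments and a control level of 8.85. ANAPC11 (chr17:81890790-81900533, plus strand) encodes the RING protein that holds the ubiquitin-conjugating enzyme. It had 2 summits near its listed starts, one 156 bp upstream of the first start with a fold of 4.43 (2.95 to 6.42) and one 21 bp upstream of a later one with 7.71 (5.69 to 10.2). The weaker summit lay inside ALYREF. The stronger one had 46 Myc fragments over a control level of 5.09, the lowest in the list. Both genes lay below the median of 7.92, ANAPC2 above 38.6% and ANAPC11 above 47.6% of the genes with a peak. The interval of each took in that median, so counting error does not separate them from it.

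ANAPC10 (chr4:144994575-145098571, minus strand), whose product forms with the coactivator the pocket for the destruction box of substrates, had a fold of 11.5 (9.58 to 13.6). Its summit lay 34 bp upstream of the annotated 5′ end. The pileup of 127 was almost that of ANAPC5, but the control level of 10.2 was the highest of the 10 genes. A weak second peak, with a fold of 3.72 (2.45 to 5.42), lay inside the gene and 32270 bp from its 5′ end.

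By fold, the 3 arm genes of the group, at 14.3 to 17.5, lay above ANAPC4 of the platform and below ANAPC1 and ANAPC5. The arm genes outside the group, CDC16, CDC23, CDC26 and CDC27, had 6.96 to 11.8. ANAPC7 (chr12:110372900-110403708, minus strand), which encodes a tetratricopeptide repeat protein at the tip of the arm, had a fold of 17.5 (14.5 to 21.0). ANAPC16 (chr10:72216012-72235860, plus strand) and ANAPC13 (chr3:134477704-134486023, minus strand) encode small proteins that bind the repeat subunits, and had 16.5 (13.6 to 19.9) and 14.3 (11.8 to 17.1). Their summits lay 290, 166 and 80 bp downstream of the nearest listed start. The intervals of all 3 overlapped, and each also overlapped that of ANAPC5. Those of ANAPC7 and ANAPC16 overlapped that of ANAPC1, and that of ANAPC13 overlapped that of ANAPC4.

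In the order of fold, only ANAPC15 was separated from its neighbour by the intervals. From ANAPC1 down to ANAPC2 each interval overlapped that of the next gene, and of the 45 pairs among the 10 genes 28 had intervals that did not overlap, 9 of them with ANAPC15. Ranks by fold among the 11986 genes with a start or end peak ran from 1 for ANAPC15 and 239 for ANAPC1 to 6236 for ANAPC11 and 7359 for ANAPC2. The start summits lay a median of 142 bp from the nearest listed start, 5 upstream and 5 downstream, and over the 9527 genes with a summit near a listed start the median distance was 205 bp. The start peaks were 691 to 2355 bp wide, with a median of 1671 bp, where the median nuclear peak was 688 bp wide. That median takes in weak peaks and peaks away from starts. Widths were not compared with the strongest start or end peaks of other genes, so width cannot be called a trait of these 10.

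**Figure D3:**
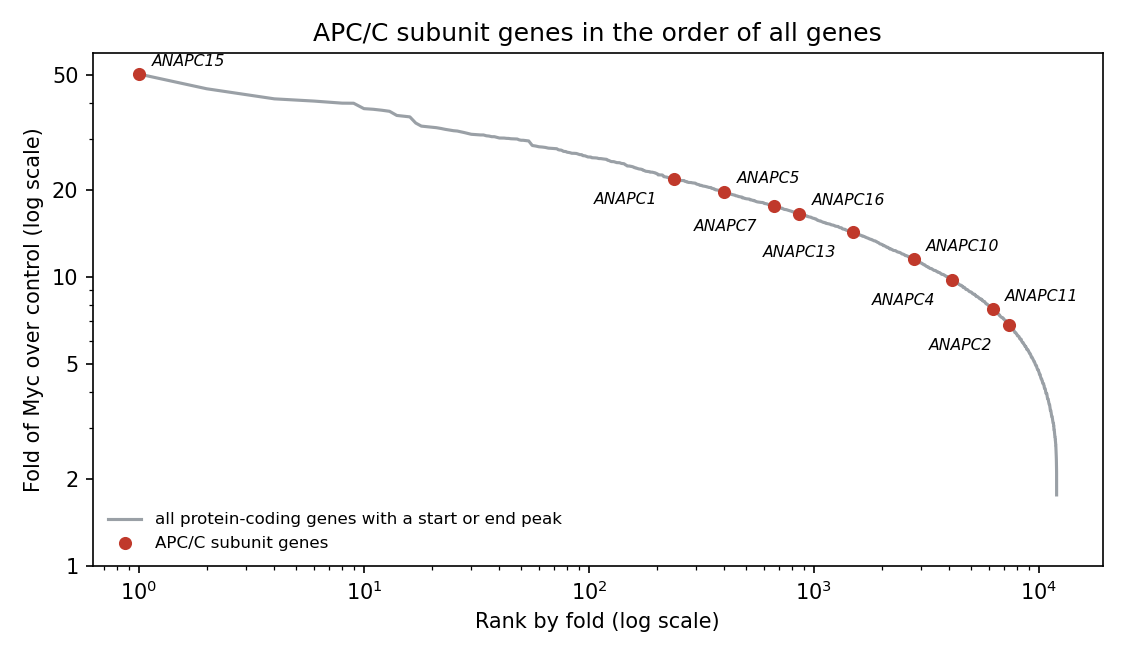
Fold of Myc over control against rank by fold, both on log scales, for the 11986 protein-coding genes with a summit within 1 kb of an annotated end or a listed start (grey line), with the 10 subunit genes as red points. ANAPC15 holds rank 1, and 7 of the 10 genes lie above the upper quartile of 11.1.

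For 5 of the genes the start peak could not be given to the subunit gene alone, because an end of another protein-coding gene lay within 1 kb of the summit. The summit of ANAPC2 lay 293 bp upstream of its start and inside SSNA1, which encodes a microtubule-associated protein, 177 bp from an end. That of ANAPC10 lay 294 bp from ABCE1, a ribosome recycling factor, and that of ANAPC13 181 bp from CEP63, a centrosomal protein gene. The stronger ANAPC11 summit lay 319 bp from ALYREF, an mRNA export gene, and the ANAPC16 summit 956 bp from ASCC1. The other 5, ANAPC1, ANAPC4, ANAPC5, ANAPC7 and ANAPC15, had no such neighbour. The median fold was 11.5 over the shared and 19.6 over the unshared subunit genes. Over all genes with a peak the order was the other way, with 9.46 for 3321 shared and 7.39 for 8665 unshared sites. With 5 genes on each side this is a description, and it was not tested.

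Away from the starts, Myc peaks around these genes were mostly weaker and nearer to an end of a neighbouring gene. Of the 37 peaks, 11 lay within 1 kb of a start or end of the subunit gene, with a median fold of 14.3, and the other 26 had a median of 4.34. Of the 37 summits, 7 lay inside a subunit gene, and 25 had an end of a different coding gene closer by. Among these 25, 8 were around ANAPC2 and 8 around ANAPC11. Neither count was set against all protein-coding genes, so neither can be called a trait of these 10. No summit lay inside ANAPC1, which spans 117963 bp, nor inside ANAPC2 or ANAPC4. All 10 subunit genes had at least 1 summit inside or within 20 kb, where 79.7% of protein-coding genes did. The median number of such peaks was 2.5 per subunit gene, 3.0 per protein-coding gene with at least 1 and 2.0 per protein-coding gene of any kind.

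The densest surroundings were those of ANAPC11, with 9 peaks, and ANAPC2, with 8. Around ANAPC2 the strongest site was not at its own start: the start had 6.80, and a peak inside TPRN, 7100 bp upstream of it, had a fold of 9.85 (7.54 to 12.7). Peaks 12509, 9508 and 17237 bp upstream also had higher folds than the start, at 8.04, 7.55 and 7.55. The intervals of all of these overlapped that of the start. Around ANAPC11 a peak 825 bp from an end of ARHGDIA had the same fold of 7.71 as the subunit start. Both had 46 Myc fragments over 5.09, the lowest control level in the list, so equal counts give equal folds there. The strongest of the 26 peaks away from the starts, with a fold of 11.8 (9.26 to 14.9), lay inside CAMKK2, 11684 bp beyond the 3′ end of ANAPC5. Near ANAPC15 the next site was one at LAMTOR1, a lysosomal scaffold gene, with a fold of 9.38 (7.45 to 11.7) and 3234 bp beyond the 3′ end. ANAPC7 and ANAPC13 had no peak within 20 kb besides the one at the start.

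The window of 20 kb set how many peaks were counted. Just inside it lay a peak 19248 bp beyond ANAPC16 with a fold of 4.42 (2.99 to 6.32) and one 18628 bp from ANAPC11 with 7.71. Just outside lay a peak 21771 bp from ANAPC4 with 2.95 (1.79 to 4.63) and one 23295 bp from ANAPC11 with 6.89 (4.99 to 9.29).

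**Figure D4:**
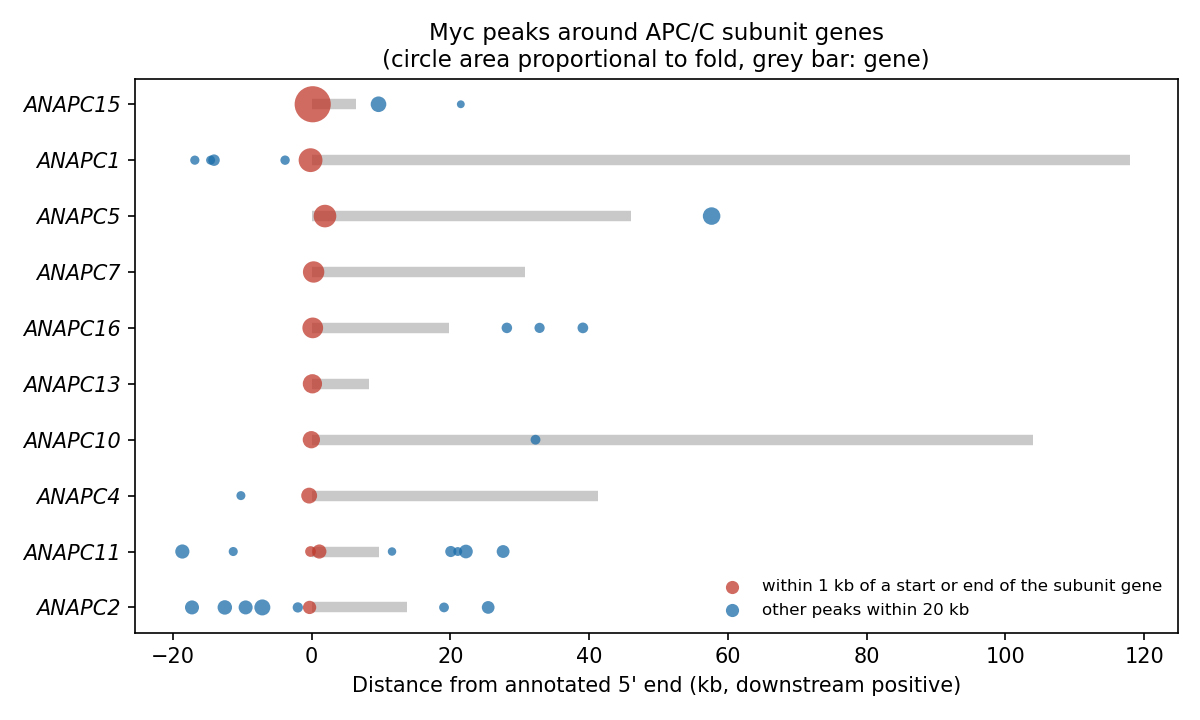
Position of the 37 Myc peaks relative to the annotated 5′ end of each subunit gene, in kb with downstream positive. Grey bars are the genes, circle area is proportional to fold, and red circles are the 11 summits within 1 kb of a start or end of the subunit gene; 1 red circle per gene is seen at its start, with a second one at ANAPC11.

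Promoter windows of the 10 genes were searched for 9 short motifs on both strands. The canonical E-box CACGTG was found at ANAPC13 alone, 110 bp from the Myc summit and 7 bp downstream of a listed start. It is held by 10.9% of the 15842 genes with windows, by 13.0% of those with a summit near a start and by 8.32% of the 22078 windows. Genes with this motif and a summit near a start had a median fold of 9.03 over 1238 genes, against 7.92 over the other 8289. The CATGTG variant was found at ANAPC5 alone, where 11.5% of all genes and 9.65% of those with a summit near a start hold it.

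The variant CACGCG, read as CGCGTG on the other strand, was found at 7 of the 10 genes, where 18.1% of all genes hold it in a window, 22.9% of those with a summit near a start and 27.7% of those whose start fold also passed the upper quartile. The genes without it were ANAPC1, ANAPC15 and ANAPC16. The match nearest to the summit of each of these 7 genes is shown in capitals on the strand of the gene (RefSeq, GRCh38.p14), with flanking bases from the window. The distance between match and summit ran from 66 bp at ANAPC10 to 322 bp at ANAPC7. The match at ANAPC11 spanned a listed start, with its centre 1 bp upstream. The match at ANAPC4 lay 247 bp upstream of a listed start, while that at ANAPC10 lay 31 bp downstream.
ANAPC2, chr9:137188579-137188608 (minus strand): gcgtcatggctgCGCGTGcagacgtgcgtc
ANAPC4, chr4:25377013-25377031 (plus strand): cCGCGTGccccacccttcc
ANAPC5, chr12:121352448-121352477 (minus strand): aaatgccgcgagCACGCGgatgtctgtttc
ANAPC7, chr12:110403726-110403755 (minus strand): tgggggtggtgcCGCGTGtggacccgatgg
ANAPC10, chr4:145098525-145098554 (minus strand): aggaaccgctgcCACGCGctgctgctgtct
ANAPC11, chr17:81891708-81891737 (plus strand): gaggcggggaggCGCGTGcgcactggcgtg
ANAPC13, chr3:134486056-134486085 (minus strand): agacttcccctgCACGCGagcaaatgaact

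The genes with CACGCG took in both the weaker folds, ANAPC2 at 6.80 and ANAPC11 at 7.71, and stronger ones, ANAPC5 at 19.6 and ANAPC7 at 17.5. A gene with several listed starts had more windows to search, 4 each at ANAPC10, ANAPC11 and ANAPC15 and 3 at ANAPC13, so the counts per gene do not rest on equal lengths. The summit lay inside a window for 3 of the 10 genes only, ANAPC1, ANAPC10 and ANAPC11, so most summits were outside the sequence searched. A match is a run of letters and not a bound site. For ANAPC15 the absence of an E-box form refers to the 748 bases searched, without the 97 around the summit.

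Other motifs divided the genes differently, and since all 10 genes have a summit near a start, the share among the 9527 genes with one is given after that of all genes. The GC box GGGCGG was found at 9 of the 10 genes, all but ANAPC7, where 64.3% of all genes and 78.4% of those with a summit hold it. The ETS core CCGGAA was found at ANAPC4, ANAPC11, ANAPC15 and ANAPC16 (26.6% and 36.8%), and in ANAPC15 it lay 60 bp from the summit. GCATGCG, part of the consensus of the factor NRF1, was found at ANAPC15 alone (6.07% and 8.02%), 120 bp from the summit. TGACGT, part of the cyclic AMP response element, was found at ANAPC10, ANAPC11 and ANAPC15 (11.7% and 14.4%). The CCAAT box was found at ANAPC5, ANAPC11 and ANAPC15 (42.1% and 44.1%). TTTGAA, the core of a cell cycle homology region, was found at ANAPC1, ANAPC7 and ANAPC10 (15.8% and 13.6%). GC content of the 21 windows ran from 36.7% to 77.3% with a median of 61.0%, and the median over all windows was 62.3%.

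The 4 core subunits outside the ANAPC group each had a summit within 1 kb of a listed start, where 60.1% of genes with a listed start did, and had lower folds than ANAPC15. CDC26, a small partner of the arm, had a fold of 11.8 (9.40 to 14.7) at a site shared with PRPF4, and the repeat protein genes CDC16, CDC27 and CDC23 had 11.2 (9.10 to 13.6), 9.19 (6.96 to 11.9) and 6.96 (5.15 to 9.21). The median was 15.4 over the 10 ANAPC genes, 10.2 over these 4 and 7.92 over all genes with a peak. The CDC27 site also lay near an end of MYL4. Above the median of all genes lay 8 of the 10 ANAPC genes and 3 of these 4. Among those above it, ANAPC4 (7.57 to 12.2) and CDC27 had intervals that took in the median.

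Among genes that act with or against the complex, all 6 coactivator, inhibitor and ubiquitin-conjugating enzyme genes had a peak near a start or end, where 59.8% of protein-coding genes did. Their median fold was 10.9. FBXO5, which encodes the interphase inhibitor EMI1, had 25.8 (21.9 to 30.1), UBE2S, the chain-extending enzyme gene, had 20.9 (17.5 to 24.7), and the coactivator gene FZR1 had 11.2 (8.69 to 14.1). CDC20, the mitotic coactivator gene, had 10.6 (8.24 to 13.5), the chain-starting UBE2C 9.48 (7.58 to 11.7) and UBE2D1 6.73 (4.85 to 9.10). FBXO5 was the only gene of the 44 in these related lists whose fold was above that of ANAPC1, and their intervals overlapped.

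All 8 mitotic checkpoint genes and all 12 substrate genes listed had a peak as well, against 59.8% of protein-coding genes. Among the checkpoint genes the median fold was 7.99, and the highest were 13.7 at MAD2L1, which encodes a component of the mitotic checkpoint complex, 13.5 at MAD2L1BP, which helps to take that complex apart, and 8.94 at BUB1B. The lowest was 4.95 at MAD1L1. Among the substrates the median was 9.79, with CKAP2 at 15.0, TPX2 at 14.7 and the cyclin gene CCNB2 at 13.3 highest. PTTG1, which encodes securin, had 9.90 (7.84 to 12.3) and CCNB1 8.38 (6.33 to 10.9).

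The cullin-RING ligases, the family to which ANAPC2 and ANAPC11 belong, were set beside them. All 14 listed genes had a peak near an end or a listed start, where 59.8% of protein-coding genes did, and their median fold was 8.78. The highest was the cullin gene CUL4A at 21.6 (18.2 to 25.5), followed by CUL4B at 11.3 (8.83 to 14.3) and the adaptor gene DDB1 at 10.5 (8.48 to 12.8). RBX1, which encodes the RING partner of most cullins, had 10.2 (8.07 to 12.6). The differences between these lists and the ANAPC genes were not tested.

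**Figure D5:**
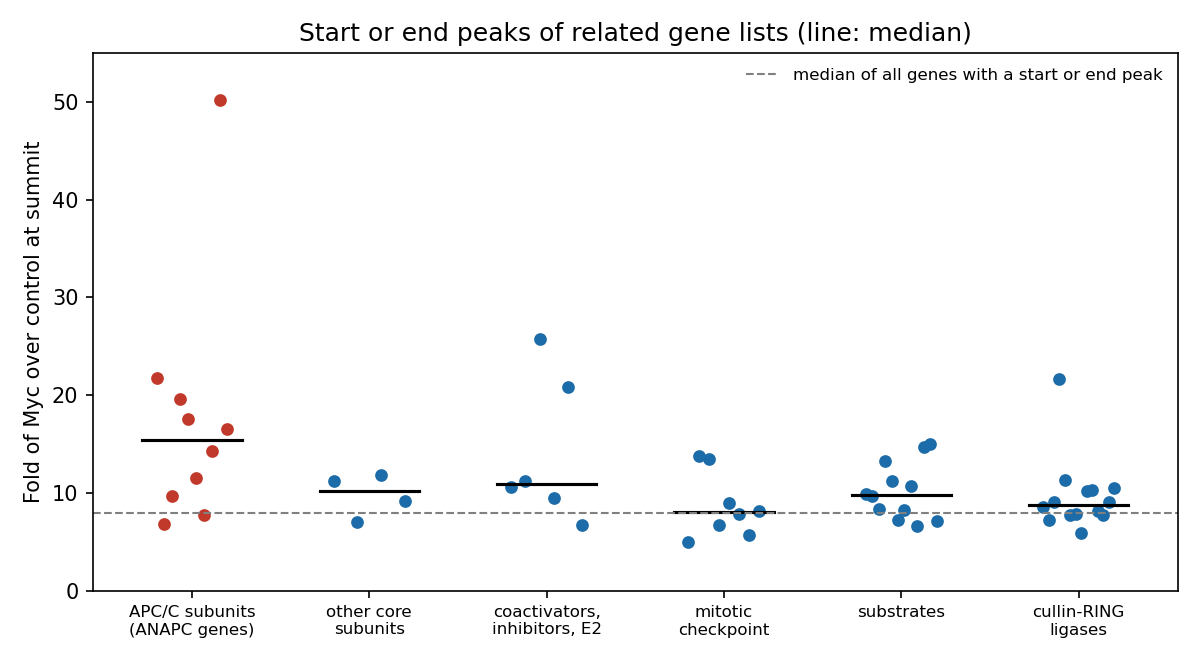
Fold of Myc over control at the strongest start or end peak of each gene, for the 10 APC/C subunit genes (red) and 5 related lists (blue), with the median of each list as a bar. The dashed line is the median of 7.92 over all genes with such a peak; the ANAPC genes have a median of 15.4 and the other lists medians of 7.99 to 10.9.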

How the data were processed

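Binding of Myc was measured by CUT&RUN in 3 Myc, 3 IgG and 1 input library, grouped by their titles. The submitters' processing notes name the build hg38 and the tools MACS2 2.1.2, BWA 0.7.15, SAMtools 1.5, FastQC 0.11.7, deepTools 3.5.0, HOMER 4.11.1 and Picard 2.19.0. Which libraries served as control, how replicates were joined and the settings were not given in the sources used here. As deposited by the authors, 1 narrowPeak list held a fold ratio, a −log10 p and a −log10 q per peak, and a score derived from q. The lowest −log10 q was 1.30.

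Pileups were solved from the fold, taken as Myc pileup plus 1 over control level plus 1, and the Poisson −log10 p; 47016 of 47017 peaks gave a whole number within 0.001 on the −log10 p scale, and the procedure, tested on 2000 simulated peaks, recovered 100% of pileups. The mitochondrial peak was left out of all summaries. Positions count from 1. Genes and starts came from RefSeq tables (GRCh38.p14); starts were listed for 15842 of 20037 protein-coding genes, and all 10 subunit genes matched. All of these are named, with the genes sharing their peaks, the sites nearest to ANAPC15 in fold, and from each related list the highest 3; further genes of those lists were named after their values were seen. Members, lists and rules were chosen with earlier results of these data known. No test was made. Alternative windows, q thresholds, positions and measures are given in the closing section. Python 3.11.15, numpy 2.4.6, pandas 2.3.3, scipy 1.17.1 and matplotlib 3.10.9 were used.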

Additional observations from a re-analysis of the deposited data

How the results depend on the processing

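Of 24 alternatives to the 4 main results, 18 stayed within 1.5 times the main count or rank, or within the counting interval of the gene at the main median. The number of subunit genes with a summit within 1 kb of an annotated end, 9 of 10, ran from 8 to 10. The count of 37 peaks moved with the window, to 7 inside the genes, 20 with 10 kb and 74 with 50 kb. It came to 22 at a −log10 q of at least 10, and to 12 for summits nearer to the subunit gene than to any other. Among protein-coding genes, ANAPC15 ranked 1 by fold, also with windows of 500 bp and 5 kb, and by −log10 q, and 6 by pileup; the cause was not tested. The median fold over subunit genes near an end, 14.3, was 12.9 without ANAPC15. Leaving out a library was not possible, and no paired analysis was possible because the list holds 1 value per peak for all Myc libraries. The lowest pileup in the list was 14, and sites that the authors' calling left out have no value here.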

Other observations

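ANAPC1 has 6 pseudogenes in the RefSeq table, all on chromosome 2, and reads from such copies can be placed on one another. Of the 10 pseudogenes listed for the subunit genes, only ANAPC1P2 had a peak inside it or within 1 kb, with a fold of 7.95 at chromosome 2, position 87076667, over a control level of 5.54. The ANAPC1 start peak had a fold of 21.8 over a control level of 6.07. Whether reads were shared between these sites was not tested.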
